A study of Homo sapiens with 15 samples.

Results

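The transcripts of 10 RNA-binding proteins that regulate alternative splicing were followed while human embryonic stem cells were differentiated towards cardiomyocytes, in cultures that also held markers of other cell types. The members were RBM20, RBM24, RBFOX1, RBFOX2, QKI, MBNL1, MBNL3, CELF2, ESRP2 and PTBP1, found by matching the Ensembl identifiers of the tables to GENCODE symbols. All 10 were present among the 48777 genes of the count table.

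The cells were H1, an established human embryonic stem cell line, and nothing in the labels names a genetic change. Bulk RNA sequencing of total RNA depleted of ribosomal RNA was done on days 0, 4, 9, 11 and 20, with 3 biological replicates a day and 15 libraries in all. All cells grew on the laminins LN-521 and LN-221, except that the deposited sample table gives LN-521 alone for day 0. Day 0 cells were kept in a pluripotency medium and day 4 cells had grown to confluence before differentiation. Days 9 and 11 followed CHIR99021, an inhibitor of GSK3 that switches Wnt signalling on, and then IWP2, an inhibitor of Wnt secretion, in medium without insulin. Day 20 cells had gone on to a B-27 supplemented medium. The protocols in the labels give different days for the addition of both inhibitors. Each library holds all the cells of a culture, so fewer cells of a type and less RNA per cell cannot be told apart.

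Splicing regulators bind short RNA elements near exons and decide whether an exon is kept or skipped. In the heart, RBM20 acts on titin and on genes of calcium handling, while RBM24 and the RBFOX proteins promote the inclusion of muscle exons. MBNL proteins take part in the switch from fetal to adult splicing and CELF proteins often oppose them. ESRP proteins maintain epithelial exon choice, which pluripotent cells share, and PTBP1 represses many tissue-specific exons in cells that have not differentiated. Gene-level reads give the amount of each regulator's transcript, and exon inclusion was not measured here.

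Each member is a protein-coding gene with its own locus (GRCh38, GENCODE v44 coordinates). RBM20 (ENSG00000203867) lies on the plus strand at chr10:110644336-110839468 and RBM24 (ENSG00000112183) on the plus strand at chr6:17281361-17293871. RBFOX1 (ENSG00000078328) occupies 2473.5 kb of the plus strand at chr16:5239802-7713340, and RBFOX2 (ENSG00000100320) the minus strand at chr22:35738736-36028824. QKI (ENSG00000112531) is at chr6:163414000-163578592 on the plus strand. MBNL1 (ENSG00000152601) is at chr3:152243828-152465780 on the plus strand, and MBNL3 (ENSG00000076770) at chrX:132369320-132489968 on the minus strand. CELF2 (ENSG00000048740) is at chr10:10798397-11336675 on the plus strand. ESRP2 (ENSG00000103067) is at chr16:68229033-68238102 on the minus strand, and PTBP1 (ENSG00000011304) at chr19:797075-812327 on the plus strand. Exons of RBM24, RBFOX1, MBNL1 and ESRP2 overlap annotated genes of the opposite strand, among them MBNL1-AS1 and NFATC3. Whether reads were counted by strand is not given in the sources used here, so reads of such overlaps may belong to either gene. MicroRNA genes of the same strand, MIR6773 in ESRP2 and MIR4745 in PTBP1, also overlap member exons.

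The promoters of RBM20 and RBM24 are shown because these transcripts had the largest positive differences among the members after day 4. RefSeq entries (GRCh38.p14) were present for 7 of the 10 members, and QKI, RBFOX2 and ESRP2 had no entry in the table. The 250 bases before the start are printed 5′ to 3′ on the plus strand, with each CpG in capitals. The RBM20 window is chr10:110644086-110644335 and the RBM24 window is chr6:17281814-17282063. The RefSeq start of RBM24 lies downstream of the GENCODE gene start, so this window falls within the GENCODE span of the gene.
RBM20: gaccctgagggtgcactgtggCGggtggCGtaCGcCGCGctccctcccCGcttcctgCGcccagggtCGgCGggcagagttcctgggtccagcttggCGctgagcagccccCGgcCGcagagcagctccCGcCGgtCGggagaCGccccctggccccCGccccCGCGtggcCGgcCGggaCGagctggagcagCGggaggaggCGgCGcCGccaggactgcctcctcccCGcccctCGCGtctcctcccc
RBM24: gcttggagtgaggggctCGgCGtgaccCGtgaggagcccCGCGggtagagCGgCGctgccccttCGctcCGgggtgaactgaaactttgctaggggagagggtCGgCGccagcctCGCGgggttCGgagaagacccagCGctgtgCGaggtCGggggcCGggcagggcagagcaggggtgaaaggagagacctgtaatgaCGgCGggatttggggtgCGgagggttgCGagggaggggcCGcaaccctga
The RBM20 window held 29 CpG and the RBM24 window 23, where the median of all 35116 RefSeq promoters of this length was 11 and the upper quartile 23. Neither window held the letters TATAAA (in 10.7% of all promoters), GATAA (20.4%), AAGTG (37.6%) or CANNTG (61.8%) on either strand, and none of these motifs contains another. These are matches of letters only, and no binding was measured. RBFOX1 had 5 windows in the table with between 3 and 36 CpG, and CELF2 had 10 with between 4 and 44. The gene-level counts do not tell which start was used.

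Library totals ranged from 11990302 to 33469703 counted reads. Levels are given as the deposited TPM, which is scaled to both depth and gene length. Differences are log2 fold changes of edgeR's quasi-likelihood test on the counts ± standard error, with Benjamini-Hochberg adjusted p-values over every gene in the fit. A difference was called at an adjusted p under 0.05. The summed TPM of 6 cardiomyocyte markers (TNNT2, MYH6, ACTN2, MYL7, TNNI1 and NKX2-5) lay between 9.47 and 15.1 on days 0 and 4, between 223 and 1326 on day 9, between 3849 and 20860 on day 11 and between 5085 and 21840 on day 20. None of the 6 was at 0 in any library. Replicate 2 of day 20 (plate 2_3) stood apart. It had an RNA integrity number of 6.1, where the other 14 libraries had at least 8.8, and it held reads on all 226 long autosomal genes that were nearly silent in the 12 libraries of days 0 to 11, with a median of 8.64 reads per kb. Replicate 3 of day 20 (plate 6_1) held reads on 69.5% of these genes with a median of 0.446 reads per kb, and the median of every other library was 0. A gene without a symbol took 20.0% of all TPM in replicate 3 of day 0 and 17.0% in replicate 1 of day 9, which lowers every other TPM value of these libraries but not the counts that were tested.

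**Figure D1:**
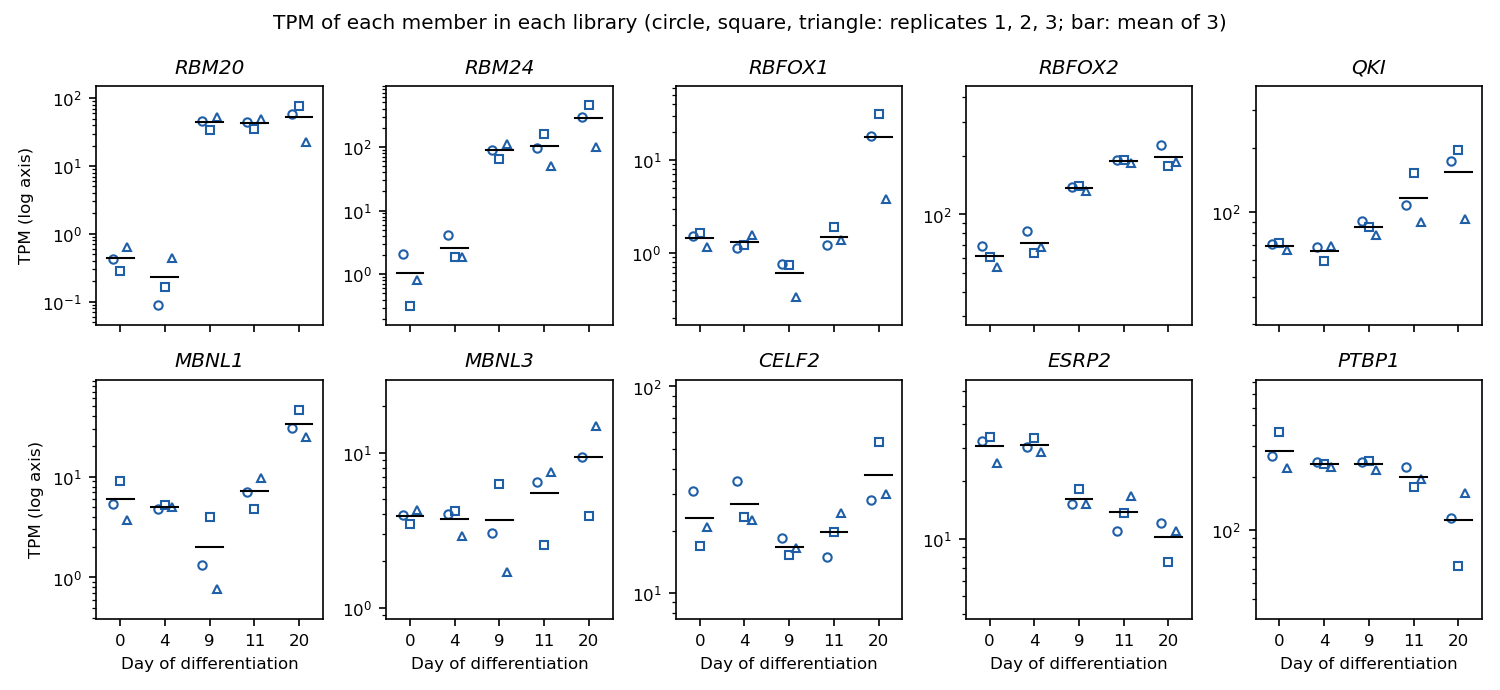
Each panel plots the TPM of a member (log axis) in every library against the day of differentiation, with circles, squares and triangles for replicates 1, 2 and 3 and a bar for the mean of 3. RBM20 and RBM24 are low on days 0 and 4 and high from day 9, RBFOX1 and MBNL1 have their highest values on day 20, and ESRP2 and PTBP1 are lower on day 20 than on day 0.

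RBM20 was the member with the sharpest difference between days 4 and 9. Its TPM was 0.424, 0.280 and 0.632 in the day 0 libraries and 0.0888, 0.165 and 0.437 in the day 4 libraries, from no more than 24 reads in any of them. On day 9 the values were 46.8, 34.3 and 52.9. Every day 9 library was thus above every library of days 0 and 4, and day 9 exceeded day 4 by a log2 fold change of 7.68 ± 0.46 (edgeR, adjusted p = 1.66e-05). With so few reads on day 4 the size of this fold change depends on the fit, and it lay between 5.20 and 8.51 over 14 alternatives, with adjusted p-values between 5.12e-76 and 0.000984. On day 11 RBM20 was at 45.1, 35.3 and 50.2, and on day 20 at 58.8, 76.1 and 23.0. The libraries of days 9, 11 and 20 overlapped, and neither day 11 against day 9 (−0.10 ± 0.23, adjusted p = 0.875) nor day 20 against day 11 (0.08 ± 0.38, adjusted p = 0.942) was called.

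RBM24, which favours the inclusion of muscle exons and also acts on mRNA stability, was low on day 0 at 2.05, 0.314 and 0.823 TPM. The day 4 values of 4.10, 1.85 and 1.88 overlapped those of day 0. On day 9 it was at 90.9, 64.6 and 111, above day 4 by a log2 fold change of 5.08 ± 0.39 (edgeR, adjusted p = 5.28e-05). Levels then spread out, with 97.3, 158 and 49.6 on day 11 and 300.0, 452 and 99.2 on day 20. The mean of day 20 (284 ± 177, SD, n = 3) was the highest, but its libraries overlapped those of day 11, and the difference between these days was not called (1.28 ± 0.54, adjusted p = 0.287). From day 0 to day 20 RBM24 rose by 7.76 ± 0.81 (adjusted p = 0.000726) and RBM20 by 6.59 ± 0.58 (adjusted p = 0.000364).

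The paralog of RBM24 in these lists, RBM38, had a high level from the start, with 64.4 ± 15.1 TPM on day 0 (SD, n = 3) and 81.3 ± 2.60 on day 9. On day 11 it was at 184, 299 and 119, above all day 9 libraries, with a log2 fold change of 1.24 ± 0.30 that was not called (adjusted p = 0.0900).

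RBFOX1 and RBFOX2 recognise the same RNA element, UGCAUG, and differed in timing. RBFOX2 was abundant throughout. Its TPM was 69.2, 60.2 and 53.8 on day 0, 82.7, 63.3 and 68.0 on day 4, 138, 139.8 and 131 on day 9, 190.1, 191 and 184 on day 11 and 229, 177 and 186 on day 20. The libraries of days 0 and 4 overlapped, as did those of days 11 and 20, while day 9 lay above day 4 and day 11 above day 9 in all libraries. RBFOX2 rose from day 4 to day 9 (0.95 ± 0.14, adjusted p = 0.000765) and from day 0 to day 20 (1.46 ± 0.30, adjusted p = 0.00940). The second of these calls was lost when any 1 of the day 0 libraries was left out, with adjusted p-values of up to 0.103, and with no filter on low counts (0.107).

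RBFOX1, the form best known from muscle and brain, was low until day 11. It was at 1.51, 1.64 and 1.16 TPM on day 0 and at 1.13, 1.23 and 1.54 on day 4, and these days overlapped. On day 9 it was at 0.764, 0.736 and 0.330, below every other library, and the fall from day 4 was called (−1.10 ± 0.33, adjusted p = 0.0246). The call was kept in 10 of 14 alternatives, with an adjusted p of up to 0.111, and lost without any 1 of 3 libraries and with all 15 libraries in 1 fit. The 3 libraries of day 9 held only 20 to 33 reads of RBFOX1. After 1.23, 1.88 and 1.36 on day 11, the day 20 libraries were at 18.1, 31.5 and 3.77. All 3 lay above every earlier library, but they differed 8.33-fold among themselves. The rise from day 11 to day 20 was called by edgeR (3.34 ± 0.63, adjusted p = 0.0469) but not without any 1 of 5 of the 6 libraries, where the adjusted p lay between 0.0611 and 0.246. It was kept in only 4 of 16 alternatives, and was also lost with both other scalings, both limma fits, the lane block (0.114), the plate number as a replicate block (0.261) and the day 20 background subtracted (0.0532). Some of these fits called hardly any gene. Over all genes 0, 1 and 0 were called without replicate 1, 2 or 3 of day 11, and 0 with the plate block. From day 0 to day 20 RBFOX1 rose by 3.27 ± 0.61 (adjusted p = 0.00643). Reads at the level of the nearly silent genes would make up 7.00% of the RBFOX1 reads in replicate 2 of day 20. RBFOX3, the neuronal paralog, fell from day 4 to day 9 (−1.81 ± 0.25, adjusted p = 0.000496), and 34.3% of its reads in that day 20 library would be at the background level.

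QKI, which regulates splicing and circular RNA formation during mesodermal and muscle differentiation, was measured at 70.9, 71.8 and 66.4 TPM on day 0 and at 68.8, 59.1 and 69.4 on day 4. It was at 91.0, 85.6 and 78.2 on day 9, all above day 4, and the rise was small (0.39 ± 0.14, adjusted p = 0.0408). That call was lost without any 1 of 4 libraries, with an adjusted p of up to 0.146, with upper-quartile scaling (0.0535), with the lane as a block (0.113) and with all 15 libraries in 1 fit (0.339). On day 11 the values were 109, 152 and 90.1, and on day 20 they were 174, 195 and 92.8. All day 20 libraries lay above all day 0 libraries, with a difference of 0.85 ± 0.32 that edgeR did not call (adjusted p = 0.0844) and DESeq2 did (0.0419); over 14 alternatives the adjusted p lay between 0.0146 and 0.414.

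Among the MBNL proteins, MBNL1 was at 5.41, 9.01 and 3.72 TPM on day 0 and at 4.75, 5.23 and 5.05 on day 4. On day 9 it was at 1.32, 3.96 and 0.772, below all day 4 libraries, a difference that just missed the threshold (−1.35 ± 0.48, adjusted p = 0.0513); over 14 alternatives the adjusted p lay between 0.000202 and 0.215. It was at 7.12, 4.82 and 9.80 on day 11 and at 30.3, 46.0 and 25.04 on day 20. Every day 20 library was above every earlier library. MBNL1 rose from day 11 to day 20 (2.04 ± 0.33, adjusted p = 0.0309) and from day 0 to day 20 (2.21 ± 0.33, adjusted p = 0.00284). Without any 1 of the 3 day 11 libraries, or without replicate 1 of day 20, the first of these calls was lost, with adjusted p-values between 0.0527 and 0.213. Hardly any gene was called in those fits. The genes called numbered 0, 1 and 0 without replicate 1, 2 or 3 of day 11, and 94 of 22831 without replicate 1 of day 20. With all 6 libraries they numbered 332 of 21398.

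MBNL3, a form known from fetal and undifferentiated cells, was at 3.97, 3.48 and 4.25 TPM on day 0 and at 4.04, 4.21 and 2.88 on day 4. It was at 3.02, 6.23 and 1.69 on day 9, at 6.46, 2.54 and 7.48 on day 11 and at 9.41, 3.91 and 14.7 on day 20. Each day overlapped the day before it, and no comparison of MBNL3 was called. Replicate 2 was the lowest library of day 20, and 31.3% of its 187 MBNL3 reads would be at the background level; without this library day 20 exceeded day 0 by a log2 fold change of 1.504 (adjusted p = 0.00876, against 1.08 and 0.170 with all 6). MBNL2, the paralog that is not a member, was at 0.984 to 3.67 on days 0 and 4 and at 13.2, 43.4 and 8.33 on day 9, a rise of 4.24 ± 0.61 (adjusted p = 0.000952). It was then at 41.6, 31.3 and 45.9 on day 11 and 72.9, 47.3 and 112 on day 20.

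CELF2, a regulator of heart and brain exons, had values of 31.3, 16.9 and 20.8 TPM on day 0 and 34.7, 23.4 and 22.5 on day 4. It fell to 18.5, 15.2 and 16.5 on day 9 (−0.66 ± 0.20, adjusted p = 0.0246). This call was lost without any 1 of 3 libraries, with adjusted p-values between 0.0553 and 0.0694, and with all 15 libraries in 1 fit (0.0570). After 14.95, 19.7 and 24.5 on day 11 it was at 28.2, 53.9 and 30.2 on day 20. All day 20 libraries were above those of day 11, a difference that was not called (0.74 ± 0.29, adjusted p = 0.251). Its paralog CELF1, a broadly expressed regulator, stayed between 82.5 and 121 TPM on days 0 and 4 and was at 90.4 ± 22.8 (SD, n = 3) on day 20, with no comparison called.

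ESRP2 and its paralog ESRP1 were at their highest on days 0 and 4. ESRP2 was at 32.8, 34.3 and 25.1 TPM on day 0 and at 30.5, 33.9 and 28.7 on day 4, which overlapped. It was at 15.1, 18.2 and 15.3 on day 9, below all of them, and fell by 0.92 on the log2 scale (SE 0.11, adjusted p = 0.000305). Day 11, at 10.9, 13.7 and 16.9, overlapped day 9, and day 20 was at 12.2, 7.56 and 11.0. From day 0 to day 20 the difference was −1.78 ± 0.34 (adjusted p = 0.00663), and it was called in all 14 alternatives, with adjusted p-values between 7.08e-05 and 0.0375. ESRP1 was at 189, 176 and 136 on day 0 and at 55.7, 53.2 and 56.6 on day 9, and fell from day 4 to day 9 with a log2 fold change of −1.63 ± 0.13 (adjusted p = 3.54e-05). Its day 20 values were 46.4, 9.26 and 27.4. In replicate 2 of day 20, 29.1% of the 165 ESRP2 reads and 23.8% of the 177 ESRP1 reads would be at the background level. The 5 epithelial markers (EPCAM, CDH1, CLDN6, KRT8 and KRT18) were at 0 in no library and moved in opposite ways. From day 4 to day 9 the junction genes CDH1 (−2.75 ± 0.34, adjusted p = 0.000477) and CLDN6 (−2.28 ± 0.28, adjusted p = 0.000365) fell, the keratins KRT8 (3.12 ± 0.20, adjusted p = 1.11e-05) and KRT18 (2.53 ± 0.27, adjusted p = 0.000192) rose, and EPCAM was not called (−0.23 ± 0.27, adjusted p = 0.518). Their summed TPM lay between 3077 and 3855 on days 0 and 4, between 2806 and 4458 on day 9 and between 874 and 2486 on day 20. Their part in the ESRP values was not tested.

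PTBP1 had the highest mean TPM of the members on days 0, 4, 9 and 11. It was at 263, 361 and 227 TPM on day 0, 245, 238 and 229 on day 4, and 244, 247 and 219.9 on day 9, with overlap between these days. On day 11 it was at 230.2, 177 and 194, and on day 20 at 116, 61.8 and 163, below every earlier library. The fall from day 0 to day 20 was called (−1.49 ± 0.47, adjusted p = 0.0465), but not without any 1 of the day 0 libraries or without replicate 1 of day 20, where the adjusted p lay between 0.0741 and 0.151, nor with no filter on low counts (0.0731). PTBP2, the paralog known from neurons, was at 22.8 ± 7.50 (SD, n = 3) on day 0 and 26.3 ± 11.1 on day 20, and no comparison of it was called.

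**Figure D2:**
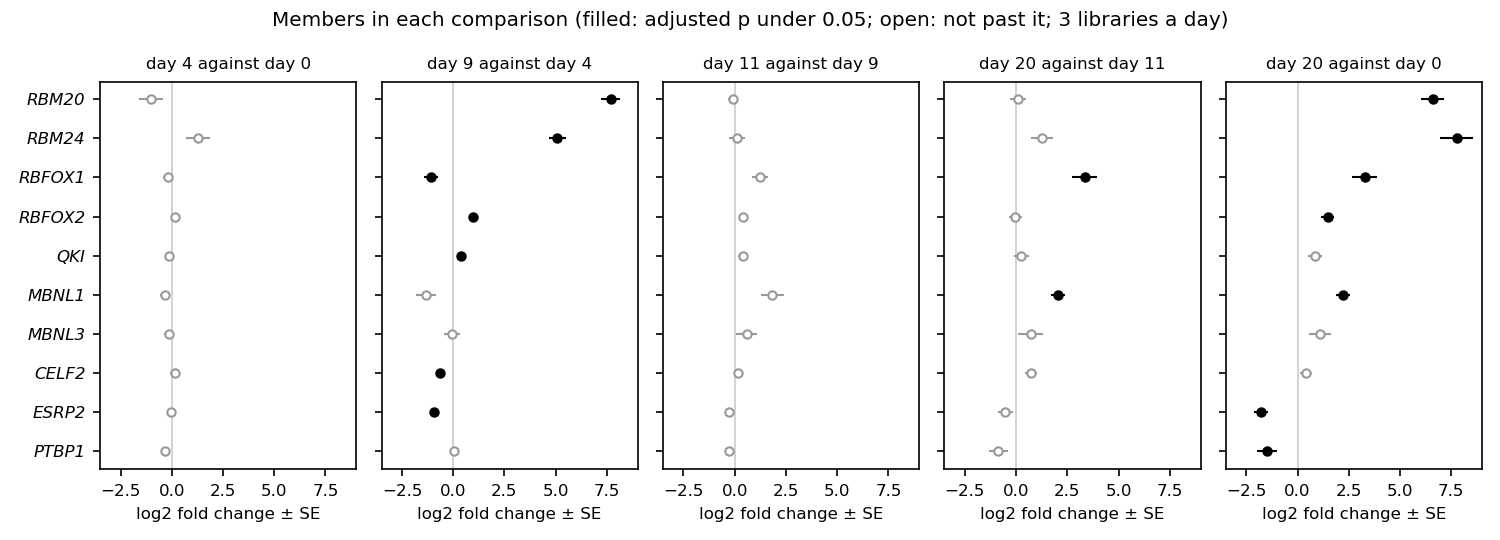
Each panel plots the log2 fold change of the 10 members ± its standard error in a comparison of days (edgeR, 3 libraries a day), with filled points for an adjusted p under 0.05. No member is filled in day 4 against day 0 or day 11 against day 9, 7 are filled in day 9 against day 4, 2 in day 20 against day 11 and 7 in day 20 against day 0.

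Day 4 against day 0 asks what changes while the cells grow on laminin before differentiation. By edgeR no member was called, 0% of the 20964 genes tested were, and no member had an unadjusted p under 0.05, where 741 of all genes did. DESeq2 and limma also called none, and 1 member had an unadjusted p under 0.05 with DESeq2 and with either limma fit. In day 9 against day 4, which spans Wnt activation and inhibition, 4 members rose (RBM20, RBM24, RBFOX2 and QKI) and 3 fell (RBFOX1, CELF2 and ESRP2). Of all 21252 genes tested 24.3% were higher and 24.7% lower, so that 4 and 3 of 10 members are close to the share of any gene. With upper-quartile scaling 3 members rose and 4 fell, as QKI was not called (adjusted p = 0.0535) and MBNL1 was (0.0490). Of all 21252 genes 5015 were higher and 5395 lower in that fit. Libraries were also compared within the 3 sequencing lanes that each held a library of both days. RBM20 was higher on day 9 in 3 of 3 lanes, with log2 ratios of CPM (counts scaled to the library total) between 6.17 and 8.65, RBM24 by 4.76 to 5.76, RBFOX2 by 0.71 to 1.35 and QKI by 0.23 to 0.84. With the lane as a block in the fit, QKI was not called and MBNL1 was (−1.60, adjusted p = 0.0205). RBFOX1, CELF2 and ESRP2 were lower in 3 of 3 lanes.

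Day 11 against day 9 compares the 2 progenitor stages. No member was called by edgeR, where 1.39% of 20679 genes were higher and 1.00% lower. At an unadjusted p under 0.05, 3 members differed, namely MBNL1 (1.85 ± 0.57, adjusted p = 0.153), RBFOX1 (1.24 ± 0.39, adjusted p = 0.155) and RBFOX2 (0.41 ± 0.14, adjusted p = 0.197), all higher on day 11 with no overlap between the days and higher in 3 of 3 lanes. Of all 20679 genes tested, 3517 had an unadjusted p under 0.05. DESeq2 called MBNL1 (adjusted p = 0.00964) and RBFOX1 (0.0449), and limma on log2 TPM called none. With the lane as a block edgeR called MBNL1 (2.04, adjusted p = 0.0430), as it did without replicate 2 of day 9 (0.0290) and with the plate number as a replicate block (0.000218). The plate block kept only replicates 1 and 2 of day 9 and replicates 1 and 3 of day 11. It called 2272 of 20897 genes, against 495 of 20679 in the edgeR fit without a block. DESeq2 called 1671 of 20679 genes, the lane block 698 of 20679 and the fit without replicate 2 of day 9 573 of 21598. In day 20 against day 11, RBFOX1 and MBNL1 rose and no member fell, beside 1.12% of 21398 genes higher and 0.435% lower. RBFOX1 was higher in 3 of 3 lanes, by 0.90 to 4.47, and MBNL1 by 1.88 to 2.27, but with the lane as a block in the fit RBFOX1 was not called (adjusted p = 0.114) and MBNL1 was (0.0453). Without replicate 2 of day 20 only MBNL1 was called, and after reads at the background level were subtracted from the day 20 libraries the same was found. Day 20 against day 0 gives the net change and shares its libraries with the comparisons above. There 5 members rose (RBM20, RBM24, RBFOX1, RBFOX2 and MBNL1) and 2 fell (ESRP2 and PTBP1), beside 16.1% of 21988 genes higher and 11.3% lower. The median log2 fold change was 1.27 over the 10 members and 0.11 over all genes tested. Days 0 and 20 shared only 1 sequencing lane, as did days 0 and 4, and no lane block was fitted for either. Lane and day cannot be fully told apart there. In the shared lane, day 20 exceeded day 0 by log2 ratios of CPM of 4.69 for RBM20, 6.35 for RBM24 and 1.26 for RBFOX1. RBFOX2 was at 1.37, MBNL1 at 2.33, ESRP2 at −1.6 and PTBP1 at −0.89. The members not called were at 0.07 (QKI), 0.12 (CELF2) and 1.37 (MBNL3).

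Members were also set beside paralogs, as a share of the summed TPM of the genes named in each case, which do not always make up the whole family. MBNL3 made up 34.4% ± 12.3 (SD, n = 3) of the MBNL1, MBNL2 and MBNL3 transcripts on day 0, 37.5% ± 5.36 on day 4, 14.8% ± 2.89 on day 9, 10.0% ± 3.00 on day 11 and 7.37% ± 2.98 on day 20. Its libraries of day 20 did not overlap those of day 0, while the summed TPM of the family went from 12.2 ± 3.58 to 120 ± 27.9. RBFOX1 was 2.12% ± 0.25 of the RBFOX family on day 0, 0.437% ± 0.16 on day 9 and 7.30%, 14.7% and 1.98% in replicates 1, 2 and 3 of day 20. CELF2 was 18.1% ± 5.21 of CELF1 and CELF2 on day 0, 12.5% ± 1.14 on day 9 and 29.3% ± 7.61 on day 20. ESRP2 was 15.5% ± 0.74 of ESRP1 and ESRP2 on day 0, 22.7% ± 2.40 on day 9 and 31.4% ± 12.3 on day 20. The day 20 shares were 20.8%, 45.0% and 28.6% in replicates 1, 2 and 3, and reads of both genes in replicate 2 would partly be at the background level. The total of ESRP1 and ESRP2 was 198 ± 32.1 TPM on day 0 and 38.0 ± 20.9 on day 20. PTBP2 was 7.36% ± 0.66 of PTBP1 and PTBP2 on day 0 and 19.2%, 37.3% and 8.16% in replicates 1, 2 and 3 of day 20. PTBP3 was left out of this share, and was at 85.6 ± 14.7 TPM on day 0 and 54.0 ± 19.9 on day 20 (SD, n = 3). By the exact two-sided permutation test, 0.1 is the smallest p that 3 against 3 libraries allow. It was reached from day 0 to day 20 by the shares of MBNL3, ESRP2 and PTBP2 and from day 9 to day 11 by that of RBFOX1, and after adjustment over the 10 tests these gave 0.25.

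**Figure D3:**
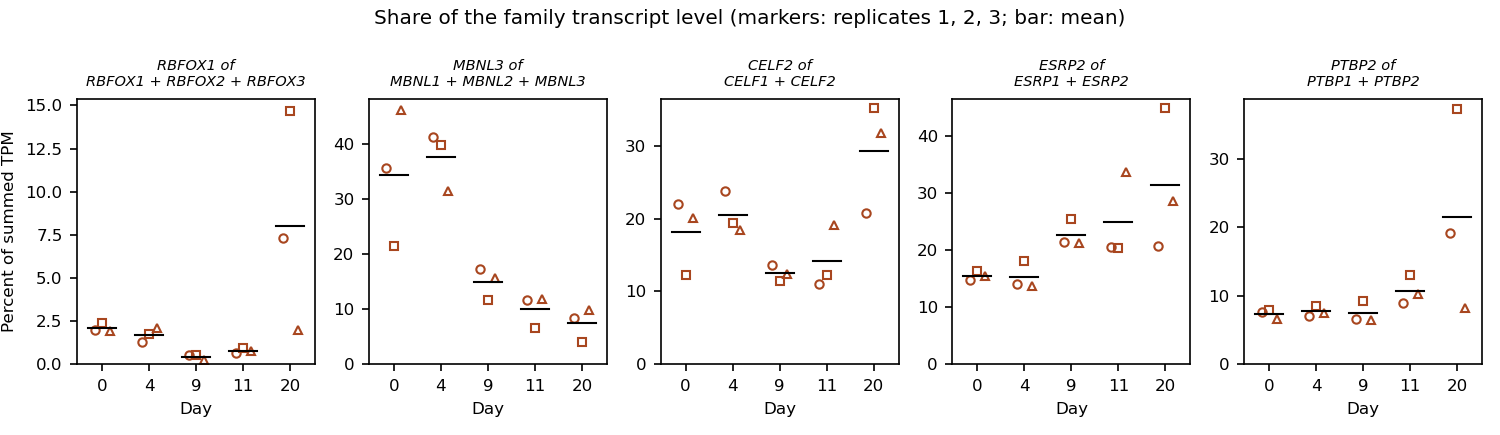
Each panel plots the percent that a gene makes up of the summed TPM of the genes in the panel title, in every library, against the day. Circles, squares and triangles stand for replicates 1, 2 and 3 and a bar for the mean of 3. MBNL3 goes from a mean of 34.4% on day 0 to 7.37% on day 20, while the RBFOX1 and PTBP2 shares of day 20 spread widely between libraries.

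On day 9 RBM20 was nearer to its day 20 mean than any of the 8 transcripts listed as known targets of its splicing activity. The mean TPM of day 9 was 84.8% of the day 20 mean for RBM20 and 31.3% for RBM24. For the 8 known RBM20 targets this percentage lay between 0.579% (LDB3, a Z-disc protein) and 50.1% (CAMK2D, a calcium-dependent kinase), and it was 3.23% for TTN, which encodes titin. For the 6 cardiomyocyte markers it lay between 0.257% (MYH6) and 8.40% (MYL7). The targets were not absent before day 9, and TTN had 1.66 to 4.94 TPM on days 0 and 4. In day 9 against day 4, 5 of the 8 targets rose (24.3% of all genes did), among them TTN (3.39 ± 0.23, adjusted p = 1.61e-05) and CAMK2D (2.96 ± 0.18, adjusted p = 8.47e-06), and TRDN, which encodes triadin, fell (−2.02 ± 0.46, adjusted p = 0.00796). In day 11 against day 9, 4 of 8 rose (1.39% of all genes). They were LDB3 (5.53 ± 0.72, adjusted p = 0.0189), LMO7 (2.93 ± 0.40), TTN (2.85 ± 0.46) and CACNA1C (2.16 ± 0.42). The count was 6 with DESeq2, where 945 of all 20679 genes rose. It was 3 with limma on log2(TPM + 1), library size alone or upper-quartile scaling, where 224, 260 and 248 of all genes rose. None of the 8 targets was called in day 20 against day 11 by edgeR, where 4 had an unadjusted p under 0.05, beside 3564 of all 21398 genes. DESeq2 called 1 target higher, where 1305 of 21398 genes were, and limma called none. All 8 rose from day 0 to day 20 (16.1% of all genes), with a median of 4.27.

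**Figure D4:**
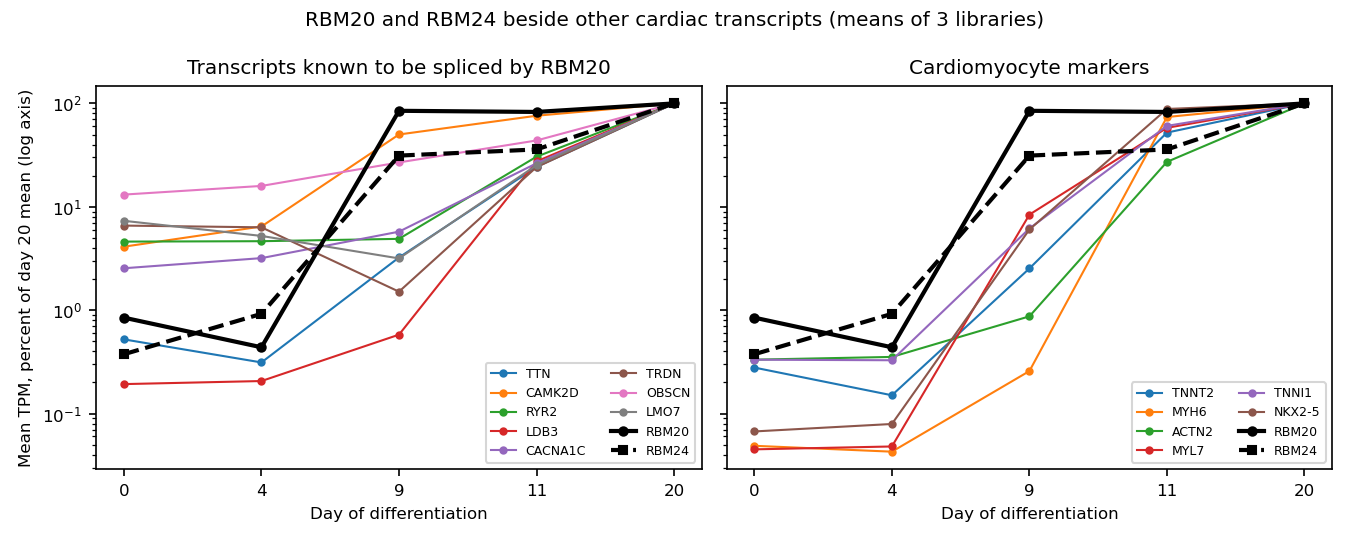
The mean TPM of each day (3 libraries) is plotted as a percent of the day 20 mean (log axis) against the day, for 8 transcripts known to be spliced by RBM20 on the left and 6 cardiomyocyte markers on the right, with RBM20 as the solid and RBM24 as the dashed black line. On day 9 RBM20 stands at 84.8% of its day 20 mean, above all 14 other transcripts drawn in colour.

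Replicates of a day differed in their cardiomyocyte marker sum, and the members did not all follow it. On day 9 the marker sum was 443, 1326 and 223 TPM in replicates 1, 2 and 3, and both RBM20 and RBM24 had the reverse order of libraries, while RBFOX2, MBNL1, MBNL3 and PTBP1 had the same order. On day 11 the sum was 6011, 20860 and 3849; RBM24, RBFOX2 and QKI had the same order and RBM20, MBNL1 and MBNL3 the reverse. On each of these days the members not named had neither order. These are orders of TPM, which the gene without a symbol lowered in replicate 1 of day 9. In CPM, RBFOX2 (421, 363.5 and 353) and PTBP1 (510, 441 and 407) did not have the marker order on day 9. ESRP2 did (25.6, 26.2 and 22.8), and RBM20 was at 115.9 in both replicates 1 and 3. On day 11 RBFOX2 (506, 495.5 and 467 CPM) did not have the marker order. On day 20 replicate 3 was low, with 5085 against 21840 and 21230 in replicates 1 and 2, and it held the lowest values of RBM20, RBM24, RBFOX1, QKI and MBNL1 and the highest of MBNL3 and PTBP1. In that library the 6 mesenchymal and fibroblast markers (COL1A1, COL3A1, LUM, DCN, POSTN and PDGFRA) summed to 21810 TPM, against 2533 and 1164 in replicates 1 and 2, and none was at 0. The 5 endoderm and liver markers (AFP, APOA1, TTR, FOXA2 and SOX17) summed to 16110, 609 and 18300 TPM and the 5 neuronal markers (SNAP25, STMN2, SYT1, TUBB3 and MAP2) to 44.9, 44.6 and 319, each in the order of replicates 1, 2 and 3. Most of the endoderm and liver sum came from AFP, at 13770, 515.8 and 14210 TPM. APOA1 and TTR also were highest in replicate 3, but FOXA2 (63.66, 12.54 and 14.75) and SOX17 (10.25, 8.49 and 4.99) were highest in replicate 1. Most of the neuronal sum of replicate 3 came from STMN2, at 33.9, 16.5 and 304 TPM in this order. Each of the 3 skeletal muscle markers was at or near 0, with a sum of at most 2.14 TPM outside replicate 2 of day 20, where it was 16.8. The 6 pluripotency markers fell from sums between 4478 and 6415 on days 0 and 4 to between 68.7 and 105 on day 20. The 3 endothelial markers summed to at most 67.4 TPM and the 3 smooth muscle markers to between 56.8 and 700.2 from day 9 on. The part of these cell types in the member values was not tested.

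**Figure D5:**
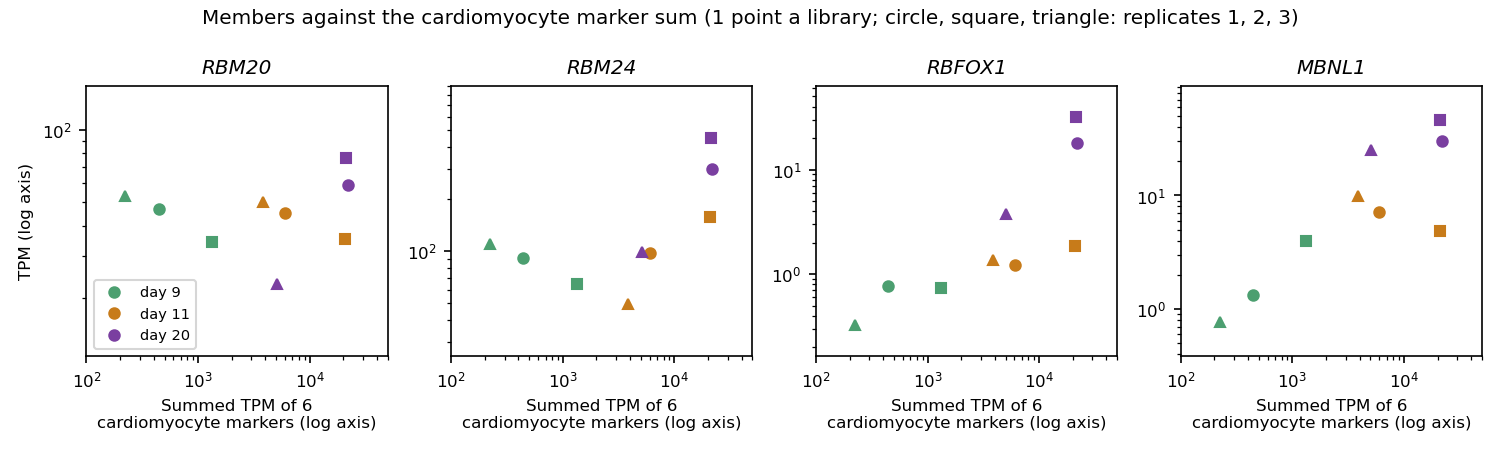
Each panel plots the TPM of a member against the summed TPM of 6 cardiomyocyte markers in the 9 libraries of days 9, 11 and 20 (both axes log), with colours for days and circles, squares and triangles for replicates 1, 2 and 3. RBM20 is at 34.3 to 52.9 TPM on day 9, where the marker sum is no more than 1326, and RBFOX1 exceeds 1.88 TPM only on day 20.

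Other splicing regulators were described by class, and none of those tested had a log2 fold change as large in size as that of RBM24 from day 4 to day 9 or from day 0 to day 20. Of the 10 tested family partners, MBNL2 rose from day 4 to day 9 and RBFOX3, CELF5 (−1.66 ± 0.20) and ESRP1 fell; from day 0 to day 20 MBNL2 rose by 4.92 ± 0.57 (adjusted p = 0.00101) and ESRP1 fell by 2.74 on the log2 scale (SE 0.60, adjusted p = 0.0119). Among 12 other tissue-restricted regulators, 3 rose and 5 fell from day 4 to day 9, beside 24.3% higher and 24.7% lower of all genes. The falls included ELAVL3 (−3.74 ± 0.37, adjusted p = 9.72e-05), NOVA2 (−3.04 ± 0.54), ELAVL2 (−2.02 ± 0.29) and SRRM4 (−1.84 ± 0.26), all known from neurons, and the rises included KHDRBS3 (1.70 ± 0.10, adjusted p = 7.98e-06), which fell again from day 9 to day 11 (−0.92 ± 0.17, adjusted p = 0.0385). From day 0 to day 20 none of the 12 rose and 3 fell, NOVA2, ELAVL2 and SRRM3, beside 16.1% higher and 11.3% lower of all genes. Without replicate 2 of day 20, 5 fell, where 4170 of all 23258 genes were lower. With library size alone or upper-quartile scaling 1 fell, where 2019 and 2210 of 21988 genes were lower. In replicate 2 of day 20, 50.3% of the NOVA2 reads would be at the background level.

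The general splicing factors are the SR and TRA2 proteins, which mostly promote exon inclusion, and the hnRNP proteins, which often oppose it. From day 4 to day 9, 4 of 14 SR and TRA2 genes rose and 4 fell, with a median of −0.11 where that of all genes was 0.01. These shares were close to the 24.3% higher and 24.7% lower of all genes. From day 0 to day 20, 5 of 14 fell and none rose, led by SRSF7 (−1.62 ± 0.26, adjusted p = 0.00340), SRSF3 (−1.52 ± 0.29, adjusted p = 0.00717) and SRSF1 (−1.47 ± 0.43, adjusted p = 0.0352), and the median was −0.80. Of 20 hnRNP genes, 1 rose (HNRNPR) and 6 fell from day 4 to day 9, the latter also close to that of all genes, led by HNRNPM (−1.39 ± 0.19, adjusted p = 0.000504). From day 0 to day 20, 6 fell and none rose, among them HNRNPAB (−1.77 ± 0.35, adjusted p = 0.00831) and HNRNPM (−1.73 ± 0.46, adjusted p = 0.0258), with a median of −0.84 where that of all genes was 0.11 and 11.3% of genes were lower. Without replicate 2 of day 20 these counts were 7 of 14 and 11 of 20, where 4170 of all 23258 genes tested were lower, against 2491 of 21988 with it. With DESeq2 they were 5 of 14 and 10 of 20, where 3185 of 21988 genes were lower. With limma on log2(TPM + 1) they were 2 of 14 and 4 of 20, where 1925 of 21988 genes were lower, and 1 SR or TRA2 gene rose. With scaling by library size alone, which moved the median of all genes to 0.23, the lower calls were 3 of 14 and 6 of 20, where 2019 of 21988 genes were lower. In day 20 against day 11 no SR, TRA2 or hnRNP gene was called by edgeR or limma. By edgeR 2 of each class had an unadjusted p under 0.05, beside 3564 of all 21398 genes. DESeq2 called 2 lower in each class, where 559 of 21398 genes were lower.

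The 5 genes most like a member were named by Pearson's r of log2(CPM + 1) over the 15 libraries, among 12961 genes with a mean of at least 5 CPM. Libraries of a day share their stage, so these values describe the time course and carry no p. For RBM20 they were MEIS2 (0.992), a homeobox factor, CXXC4 (0.991), an inhibitor of Wnt signalling, DDHD2 (0.990), SMAD9 (0.989), a mediator of BMP signals, and CCDC92 (0.988). For RBM24 they were CAP2 (0.989), an actin-binding protein, TIPARP (0.987), TBX20 (0.987), a T-box factor of the heart, PROX1 (0.986), a homeobox factor, and HSF2 (0.986). For ESRP2 they were AP1M2 (0.977), an adaptor of epithelial sorting, PRKX (0.977), RAB3B (0.975), SLC6A6 (0.971), a taurine transporter, and EPHA1 (0.971). For PTBP1 they were LIMK1 (0.971), TKT (0.968), a transketolase, EHMT2 (0.965), a histone methyltransferase, NONO (0.963) and TMEM216 (0.960). Among the members themselves the highest r were 0.96 for RBM20 and RBM24, 0.96 for RBM24 and RBFOX2 and 0.95 for RBM20 and RBFOX2. RBFOX1 and MBNL1 had 0.87, RBM24 and QKI 0.82 and ESRP2 and PTBP1 0.78. The lowest were −0.94 for RBM24 and ESRP2, −0.91 for RBFOX2 and ESRP2 and −0.9 for RBFOX1 and PTBP1.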

How the data were processed

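Bulk RNA-seq libraries of H1 cells, 3 replicates on each of days 0, 4, 9, 11 and 20, were put in groups from the time given in the labels, which is day 9 for libraries that the methods place earlier. Per the labels and the methods, the authors used STAR 2.5.2b on GRCh38 and featureCounts 1.5.1, and they left mitochondrial genes and ribosomal RNA out of the deposited raw counts. TPM were derived by the authors from the counts with gene lengths that the sources used here do not give. Of the deposited sample table, RNA integrity (a score), the fraction of uniquely mapped reads and the sequencing lane were used. Library totals lay between 11990302 and 33469703 counts, and depth together with the spread between replicates sets each standard error.

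Counts were tested with edgeR 4.0.16 in R 4.3.3 (filterByExpr, minimum count 10 and minimum total 15; TMM; robust quasi-likelihood fit and two-sided test) within the 6 libraries of a comparison, without covariates, with a threshold of 0.05 on Benjamini-Hochberg adjusted p-values over every gene in the fit. The standard error is the size of the log2 fold change divided by the square root of F. Family shares were tested by exact permutation (scipy 1.17.1, Python 3.11.15). Symbols and coordinates come from GENCODE v44 and promoters from RefSeq. The expected background of a gene is the median reads per kb on autosomal genes of at least 2000 bases with no more than 2 counts over days 0 to 11 (median on such genes of chromosome X for MBNL3), times its length. Alternatives were DESeq2 1.42.0, limma 3.58.1 on log2(TPM + 1) or log2(TPM + 0.1), upper-quartile scaling, library size alone, no filter, all 15 libraries in 1 fit, each replicate left out, the lane or the plate as a block, an adjusted p under 0.01, CPM in place of TPM for shares, and, chosen after seeing the data, subtraction of the background on day 20. A block fit kept only libraries whose lane or plate number occurs on both days of the comparison. Each tool was also run on simulated counts with known changes.

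The members and the other gene lists were chosen with earlier results of these data known. All members are named in every comparison; of other lists, up to 5 genes past the threshold with the largest log2 fold change per comparison and the paralogs of members are named, and not every gene this allows appears. The single-cell libraries of the study were not analysed here. The p-values measure the spread between the deposited replicates.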

Additional observations from a re-analysis of the deposited data

How the results depend on the processing

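The members called in day 9 against day 4 numbered 7 and lay between 5 and 7 when a replicate was left out, between 5 and 8 under the other alternatives and at 4 with an adjusted p under 0.01. In day 11 against day 9 the count of 0 became 0 to 1 without a replicate (the call was MBNL1, without replicate 2 of day 9), 2 with DESeq2, 1 with the lane as a block and 1 with the plate number as replicate block. In day 20 against day 11 the count of 2 became 0 to 2 without a replicate, 1 with upper-quartile scaling, with library size alone, with limma on log2(TPM + 1) or log2(TPM + 0.1), with the lane as a block and with the day 20 background subtracted, and 0 with an adjusted p under 0.01 or with the plate number as replicate block. The number of all genes called moved as well. In day 11 against day 9 it was 495 by edgeR, 1671 with DESeq2, 698 with the lane block and 2272 with the plate block. For day 20 against day 11 it was 332 by edgeR, 137 with the lane block and 0 of 23385 with the plate block. Without replicate 1, 2 or 3 of day 11 it was 0, 1 and 0. In day 20 against day 0 the count of 7 members lay between 5 and 8 over all alternatives, and in day 4 against day 0 the count of members stayed at 0. Plate numbers recur between days but are not stated to mark a batch. After the day means were removed, pairs from the same plate correlated over genes at 0.17 and 0.40 between days 9 and 11 and at −0.17, −0.04 and 0.40 between days 11 and 20.

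No called member changed direction under any alternative run. Of 228 alternative values for called members, 187 kept the call and 41 lost it. The direction turned in 38 of 492 alternative values of members that were not called. Leaving out 1 replicate turned MBNL1 (range −0.486 to 0.041), MBNL3 (−0.26 to 0.05), CELF2 (−0.077 to 0.347) and ESRP2 (−0.111 to 0.019) in day 4 against day 0, MBNL3 (−0.572 to 0.309) and PTBP1 (−0.033 to 0.071) in day 9 against day 4, RBM20 (−0.301 to 0.043), RBM24 (−0.334 to 0.438) and CELF2 (−0.027 to 0.351) in day 11 against day 9, and RBM20 (−0.169 to 0.369) and RBFOX2 (−0.273 to 0.145) in day 20 against day 11. The CELF2 share of day 11 minus day 9 then ranged from −0.83 to 3.21 percentage points and the ESRP2 share from −2.23 to 4.47. Other settings turned ESRP2 in day 4 against day 0 (0.023 and 0.024 with limma at pseudocounts of 1 and 0.1), MBNL3 in day 9 against day 4 (0.047 with library size alone) and PTBP1 there (−0.001 with upper-quartile scaling, −0.039 with all 15 libraries in 1 fit, −0.005 with limma at either pseudocount). With the plate number as replicate block, RBM20 (0.214) and RBM24 (−0.175) turned in day 11 against day 9 and RBM20 (−0.351) in day 20 against day 11, where RBM20 also turned with no filter (−0.089) and with the lane block (−0.012). RBFOX2 turned there with upper-quartile scaling (0.024), with limma at either pseudocount (0.054) and with the background subtracted (0.025). The cause was not tested. The median log2 fold change of all genes in day 20 against day 0 moved from 0.11 to 0.23 with library size alone and to 0.91 with no filter. With 3 libraries a day, shares cannot pass a threshold of 0.05, and members with few reads, such as RBM20 on day 4, have fold changes whose size depends on the fit.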
